A study of Mus musculus with 18 samples.

Results

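The genes described here are the numbered mouse zinc finger genes (symbols Zfp followed by digits) that lie close to another gene of the same naming. A gene was taken when its start, on the mm9 mouse genome, lay within 100 kb of the start of another numbered Zfp gene. The rule gave 140 genes out of 284 numbered Zfp symbols and of 17818 gene symbols in the embryonic stem (ES) cell table. A further 138 numbered Zfp genes had no such neighbour and are called solitary. The last 6 symbols (Zfp57, Zfp809, Zfp42, Zfp281, Zfp352 and Zfp575) were left out by name, and 2 of them lay in clusters. Apart from these 6, the rule used positions and symbols only, with no expression or chromatin value. Near the limit, Zfp868 stood 91.4 kb from its neighbour and was in, while Zfp263 stood 103 kb from its neighbour and was out.

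The study compared transcription and chromatin in mouse cells with and without TRIM28, also called KAP1. The RNA libraries used here were 1 each of wild-type ES3 cells, an ES cell line of strain C57BL/6 kept in serum with LIF on gelatin for 4 days, and of ES3 knockout (KO) cells 4 days after a Cre recombinase made active by 4-hydroxytamoxifen. A second pair came from C57BL/6 mouse embryonic fibroblasts (MEFs), as wild-type cells and as knockout cells at 5 days. Duplicates were pooled before RNA extraction, so each group has 1 library, and no spread, standard error or p-value between conditions can be given. The ES3 chromatin data are lists of regions carrying H3K9me3, a repressive histone mark, and of KAP1 peaks, with 1 list per condition. The labels state that H3K9me3 was reduced in the knockout at this time point without being gone. Neither the engineered Trim28 allele nor the promoter of the Cre is described in these labels.

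Zinc finger genes of this kind encode DNA-binding proteins with arrays of zinc fingers, and many of them, though not all, also carry a KRAB domain. The KRAB domain binds TRIM28, which brings in the histone methyltransferase SETDB1 and the HP1 proteins, so that the bound locus gains H3K9me3. The genes multiplied by tandem duplication and so stand in rows on the chromosome. Such gene clusters are themselves known to carry H3K9me3, often towards the 3′ ends, where the exons that encode the zinc fingers lie.

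The 140 genes formed 41 clusters on 13 chromosomes. Chromosome 7 held 57 of them, chromosome 17 held 18 and chromosome 13 held 16. There were 8 clusters of 5 or more genes, which held 62 genes in all, 11 clusters of 3 or 4, and 21 pairs. Zfp428 stood alone, because its neighbour Zfp575 was left out by name. The largest clusters held 13 genes each: Zfp84 to Zfp146 on chromosome 7 (401 kb) and Zfp708 to Zfp748 on chromosome 13 (484 kb). The genes were short, with a median span of 13.6 kb against 19.0 kb for solitary Zfp genes and 19.8 kb for all genes. Neighbours share a locus and are not replicates of one another. Zfp27 lay within Zfp420 on the opposite strand over 13240 bp, and Zfp82 and Zfp566 overlapped on the same strand over 13074 bp. These are overlaps of gene spans, and overlap of exons was not examined, so how far such pairs share reads is unknown. Whether reads were counted by strand is not given in the sources used here. How reads that match several similar zinc finger genes were counted is not given either.

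Trim28 itself checked the labels. In ES3 cells it stood at 1051 RPKM (reads scaled to transcript length and library size) in wild type and 37.2 in the knockout, or 3.54% of wild type. In MEFs it stood at 62.8 and 5.84 RPKM, or 9.29%. Cell identity also differed between the ES3 libraries: 13 of 13 measured primitive endoderm markers stood higher in knockout cells by 2-fold or more, against 12.5% of all measured genes. Only Sox7, Lama1, Col4a1 and Col4a2 of these reached 1 RPKM in wild type. The others reached it in the knockout alone, which favours a higher value there. The 14 listed endoderm markers summed to 1168 RPKM in the knockout and 32.7 in wild type. Of 9 pluripotency markers in the table, 6 were lower by 2-fold or more, against 3.18% of all measured genes. Their summed level was 1309 RPKM in the knockout and 2601 in wild type. Of 5 measured fibroblast markers 4 were higher by 2-fold or more in knockout ES3 cells. All 4 reached 1 RPKM in the knockout alone, which favours a higher value there. The 10 listed fibroblast markers summed to 3.02 RPKM in wild type and 20.0 in the knockout. The 5 measured endothelial markers moved in both directions there. Cdh5 and Tie1 were higher by 2-fold or more, and Kdr also stood higher (0.0846 to 1.15 RPKM). Cdh5, Tie1 and Kdr likewise reached 1 RPKM in the knockout alone. Pecam1 (9.28 to 5.05 RPKM) and Tek (7.45 to 3.41 RPKM) were lower. Fibroblast markers summed to 4118 and 3359 RPKM in wild-type and knockout MEFs, where Postn and Fbn1 were lower and Twist2 higher by 2-fold or more. In MEFs 4 of the 9 pluripotency markers were at 0 in each library. The part of these shifts in the values of the zinc finger genes was not tested. In bulk RNA, fewer cells of a type and less RNA per cell cannot be told apart. Among 27 genes of the TRIM28 and H3K9 methylation machinery, 1 was at least 2-fold higher in knockout ES3 cells, against 12.5% of all measured genes. It was Suv39h1, an H3K9 methyltransferase (8.66 to 22.3 RPKM). There 3 were lower, against 3.18% of all measured genes: Trim28 itself, the HP1 gene Cbx1 (88.2 to 37.3 RPKM) and Dnmt3l (286 to 93.3 RPKM), a cofactor of DNA methylation. In MEFs 24 were measured: Trim28 and Atrx, which encodes a chromatin remodeller (6.22 to 1.30 RPKM), were the 2 lower by 2-fold, and none was 2-fold higher. Over all measured MEF genes 4.84% were 2-fold lower and 0.981% were 2-fold higher.

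The clustered genes were transcribed at low levels. Their median was 2.03 RPKM in ES3 wild type and 2.51 in the ES3 knockout. In MEFs it was 1.30 RPKM before and 0.772 after the loss of TRIM28. ES and MEF values were normalized in separate tables, so they stand side by side with no comparison. Solitary Zfp genes had medians of 3.82, 4.25, 2.22 and 1.44 RPKM in the same order, above the clustered genes in each library. Of the 140 genes, 98 reached 1 RPKM in wild-type and 108 in knockout ES3 cells, and 79 and 65 did so in the MEF pair. None was listed at 0 in any library. A total of 78 genes were measured (1 RPKM or more in at least 1 library of a pair) in both cell types, 33 in ES3 cells alone, 3 in MEFs alone and 26 in neither.

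**Figure D1:**
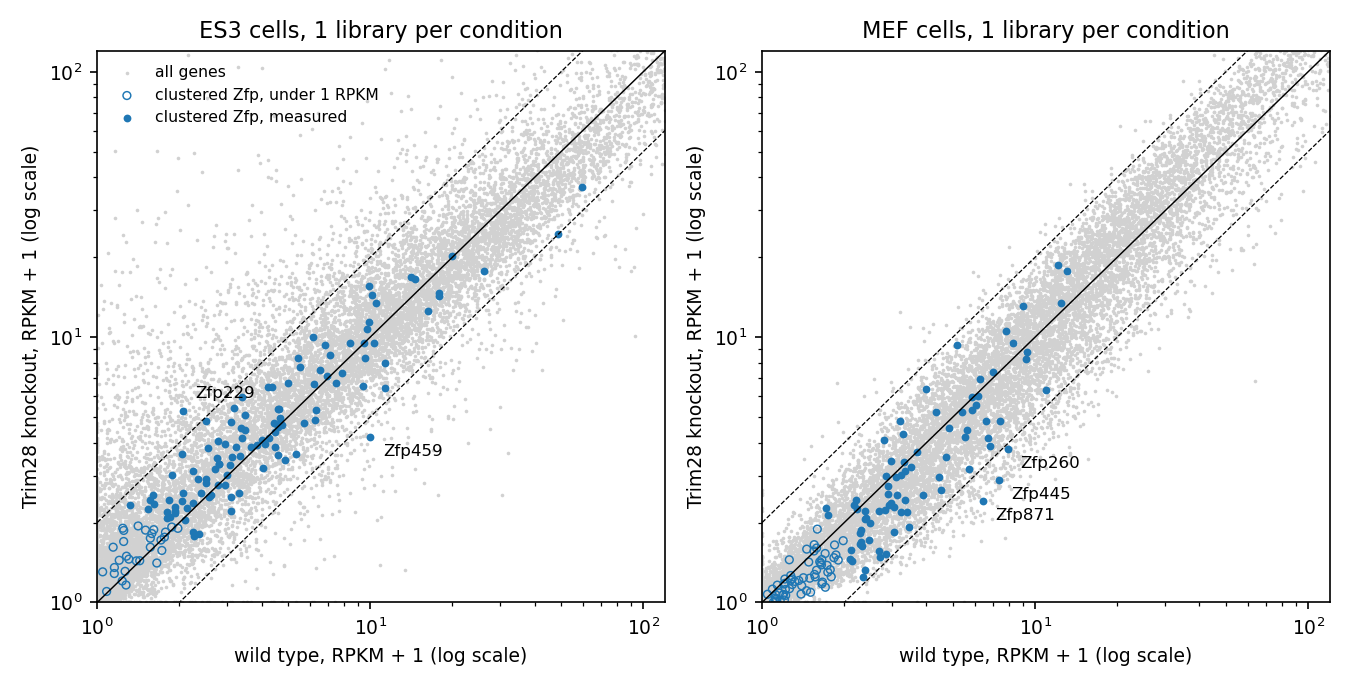
Level of each clustered Zfp gene in knockout (vertical axis) against wild type (horizontal axis), RPKM plus 1 on log axes, for ES3 cells and MEFs, with 1 library per group. Points past 2-fold are named: Zfp229 above and Zfp459 below in ES3 cells, and Zfp871, Zfp445 and Zfp260 below in MEFs.

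A few members stood well above the rest. Zfp428 was the highest in ES3 wild type at 58.5 RPKM and stood at 35.9 in the knockout, with a log2 ratio of -0.69. The log2 ratio is that of knockout plus 1 RPKM to wild type plus 1 RPKM throughout, and understates differences of low genes. Zfp553 stood at 47.7 RPKM in ES3 wild type and 23.5 in the knockout, a log2 ratio of -0.99, which passed 2-fold with a pseudocount of 0.1 RPKM (-1.02), centred on the median (-1.07) or centred by gene span (-1.10). Zfp7 stood at 25.2 and 16.7 RPKM. Thus the 3 highest genes of ES3 wild type were all lower in the knockout with log2 ratios between -1 and 0, a direction that choosing genes by a high wild-type value itself favours. Zfp771 followed, with 18.9 and 19.3 RPKM, and Zfp646 stood at 16.9 and 13.6 RPKM. Zfp568, a repressor needed in the early mouse embryo, stood at 16.9 and 13.3 RPKM in ES3 cells, and at 2.22 and 1.20 in MEFs. Zfp110, which encodes a protein that binds the neurotrophin receptor, stood at 13.1 and 15.9 RPKM in ES3 cells. In MEFs the highest wild-type levels were those of Zfp771 (12.1 RPKM, against 16.7 in the knockout), Zfp777 (11.4 and 12.4), Zfp637 (11.1 and 17.7) and Zfp146 (10.0 and 5.32).

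The first comparison asked how loss of TRIM28 in ES3 cells related to the transcripts of the clustered genes. Of 111 measured genes, 1 was at least 2-fold higher in the knockout, where 12.5% of the 12024 measured genes of the table were. One gene was at least 2-fold lower, against 3.18% of all measured genes, and 109 lay within 2-fold. Small ratios above 0 were common: 74 of the 111 (66.7%) stood above 0, against 55.4% of all measured genes. A gene that reached 1 RPKM in the knockout alone lies above 0 by construction. Of the clustered genes, 108 reached it in the knockout and 98 in wild type. The median log2 ratio was 0.17, with quartiles of -0.10 and 0.38, against 0.08 over all measured genes. With no filter the median of the clustered genes was 0.16. Among 121 measured solitary Zfp genes the median was 0.06, and 9 were at least 2-fold higher and 2 lower.

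The gene past 2-fold in the upward direction was Zfp229, at chromosome 17, 21870691 to 21883875 of mm9 on the plus strand. Its level was 1.06 RPKM in the wild-type library and 4.27 in the knockout, a log2 ratio of 1.35. The MEF levels were low, 0.705 RPKM in wild type and 0.141 in the knockout. Zfp459, at chromosome 13, 67506658 to 67514893 of mm9 on the minus strand, stood on the other side, with 9.02 RPKM in wild type, 3.20 in the knockout and a log2 ratio of -1.25. It lies in the chromosome 13 cluster that holds the regulators of sex-limited protein, and its MEF levels were 0.217 and 0.119 RPKM. Neither gene had an H3K9me3 region or a KAP1 peak within its span. The 250 bases before the start of each are shown because these genes had the 2 most extreme ratios. They are given 5′ to 3′ on the gene's strand, from RefSeq on GRCm38.p6, with each CG dinucleotide in capitals. The window of Zfp229 is chr17:21733474-21733723 (plus strand) and that of Zfp459 is chr13:67421419-67421668 (minus strand).
Zfp229: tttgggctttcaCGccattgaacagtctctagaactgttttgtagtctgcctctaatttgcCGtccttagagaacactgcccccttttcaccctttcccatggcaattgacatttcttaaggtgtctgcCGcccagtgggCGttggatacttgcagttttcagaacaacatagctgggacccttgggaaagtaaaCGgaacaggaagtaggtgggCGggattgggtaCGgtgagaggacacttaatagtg
Zfp459: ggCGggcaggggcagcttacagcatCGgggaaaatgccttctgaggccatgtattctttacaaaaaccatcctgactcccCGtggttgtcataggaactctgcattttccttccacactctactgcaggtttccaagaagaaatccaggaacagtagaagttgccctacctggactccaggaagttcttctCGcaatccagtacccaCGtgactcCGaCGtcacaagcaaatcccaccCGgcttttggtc
These windows held 7 and 8 CG dinucleotides.

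Below these came genes within 2-fold. The next highest ratios were those of Zfp282 (1.51 to 3.82 RPKM, log2 ratio 0.94), Zfp93 (2.39 to 4.97, 0.82), Zfp324 (1.05 to 2.63, 0.82) and Zfp167 (0.323 to 1.32, 0.81). Apart from Zfp93, none of these had an H3K9me3 region in its span in either condition. At the low end, after Zfp459 and Zfp553, stood Zfp787 (10.3 to 5.41 RPKM, log2 ratio -0.81), Zfp428 (-0.69) and Zfp7 (-0.57). With a pseudocount of 0.1 RPKM, which gives low genes more weight, 9 genes were at least 2-fold higher and 2 lower. With one of 5 RPKM, none was past 2-fold on either side. The shares of all measured genes at these 2 pseudocounts were not computed, so these counts cannot be set against all genes.

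The same comparison in MEFs gave lower values. Of 81 measured genes, none was at least 2-fold higher, against 0.981% of the 10805 measured genes of the MEF table. At least 2-fold lower were 3, against 4.84% of all measured genes. The log2 ratio stood below 0 in 58 of the 81 (71.6%), against 49.7% of all measured genes. A gene that reached 1 RPKM in wild type alone lies below 0 by construction. Of the clustered genes, 79 reached it in wild type and 65 in the knockout. The median ratio was -0.28 with quartiles of -0.55 and 0.04, against 0.00 over all. With no filter the median of the clustered genes was -0.18. Solitary Zfp genes had a median of -0.34 over 96 measured genes and 75% of them stood below 0, so that clustered and solitary genes both lay mostly below 0. MEF ratios moved with the length of the gene. With ratios centred within 20 bins of gene span, the median of the clustered genes was -0.40 and 5 of the 81 were at least 2-fold lower, against 2.62% of all genes. Solitary Zfp genes then had a median of -0.35, and 5 of the 96 were at least 2-fold lower. None of the clustered genes was then 2-fold higher, where 0.805% of all genes were.

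The 3 genes past 2-fold in MEFs were Zfp871 (5.43 RPKM in wild type, 1.41 in the knockout, log2 ratio -1.42), Zfp445 (6.39 and 1.89, -1.35) and Zfp260 (6.94 and 2.78, -1.07). In ES3 cells the same genes had log2 ratios of 0.43, 0.19 and 0.46. ZFP445 is known for keeping DNA methylation at imprinted regions. The next lowest measured ratios were those of Zfp81 (1.35 to 0.247 RPKM, -0.91) and Zfp663 (1.85 to 0.527, -0.90). On the high side stood Zfp524 (4.16 to 8.36 RPKM, 0.86), Zfp580 (2.99 to 5.37, 0.67), Zfp637 (0.62), Zfp444 (2.20 to 3.83, 0.59) and Zfp707 (1.80 to 3.11, 0.55). With pseudocounts of 0.1 and 5 RPKM, 15 genes and none were at least 2-fold lower. The shares of all measured MEF genes at these pseudocounts were not computed, so the 15 cannot be set against all genes.

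Clusters differed in their MEF values. In the 13-gene cluster of Zfp84 to Zfp146, 10 of 11 measured genes had MEF ratios below 0, with a median of -0.53, while the ES3 median was 0.15 over 12 genes. The summed level of that cluster was 33.7 RPKM in wild-type and 18.5 in knockout MEFs, and 59.2 and 59.3 RPKM in the ES3 pair. On the same chromosome, the 5-gene cluster of Zfp628 to Zfp580 had 5 of 5 MEF ratios above 0, with a median of 0.39 and summed levels of 16.5 and 25.1 RPKM. Centred by gene span, that median was 0.11, while that of the Zfp84 cluster was -0.48. In the chromosome 13 cluster of Zfp708 to Zfp748, 7 of 13 genes were measured in ES3 cells, with a median of 0.02 and a range from -1.25 to 0.58. Only 3 of its genes were measured in MEFs, with a median of -0.46. The 7-gene cluster of Zfp871 to Zfp563 on chromosome 17 had medians of -0.14 in ES3 cells and -0.51 in MEFs. Beside Zfp459, Zfp110 and Zfp568, the genes with the highest ES3 wild-type level of their cluster, among clusters of 5 or more, were Zfp628 (8.58 to 7.32 RPKM in the knockout), Zfp180 (5.31 to 4.31), Zfp472 (4.70 to 3.75), Zfp212 (3.47 to 3.38) and Zfp53 (1.09 to 1.04). All 5 lay within 2-fold. The cluster medians rest on few genes of shared loci and are descriptions of single libraries.

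**Figure D2:**
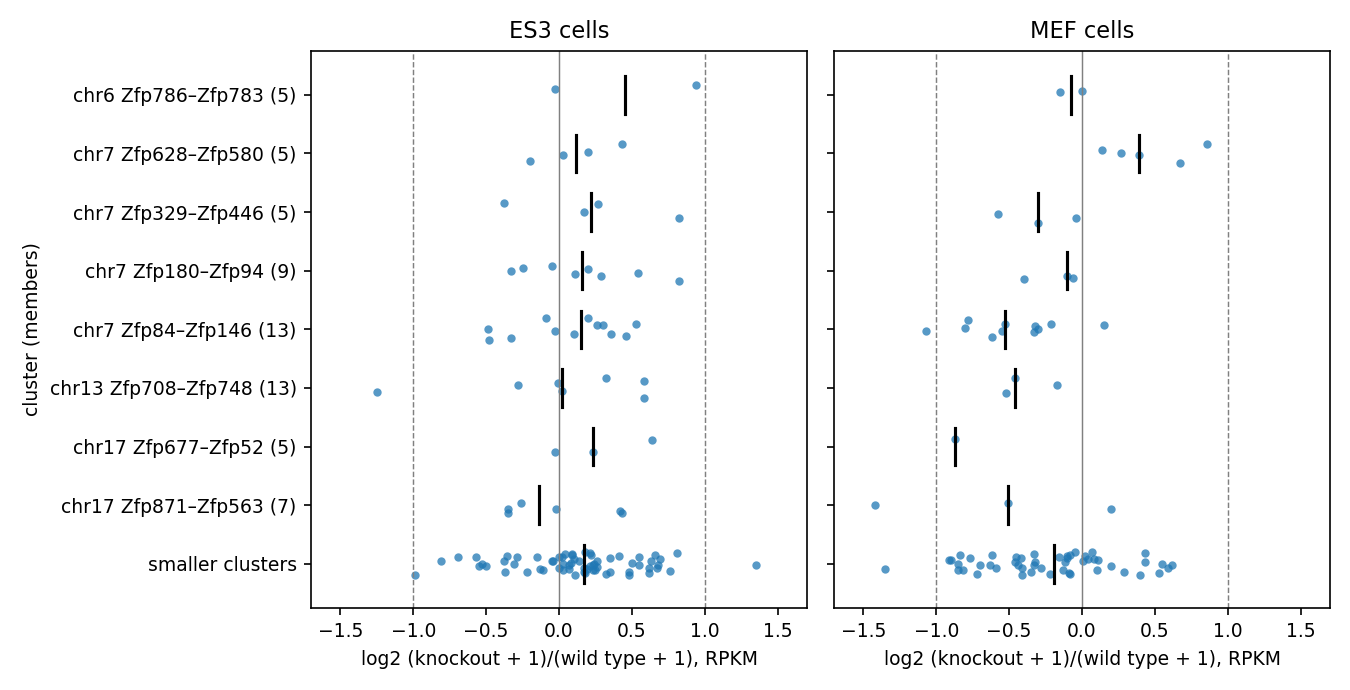
Log2 ratio of knockout to wild type (RPKM plus 1) for each measured clustered Zfp gene in ES3 cells and MEFs, 1 library per group. Each cluster of 5 or more genes has 1 row, and the last row pools the smaller clusters. In MEFs the Zfp84 to Zfp146 cluster lies mostly below 0 (median -0.53) and the Zfp628 to Zfp580 cluster above it (median 0.39).

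H3K9me3 was examined next, in ES3 cells. Regions covered at least 1 bp of 22 of the 140 gene spans in wild type (15.7%, 95% Wilson interval 10.6 to 22.6), against 16.9% of all genes and 18.1% of solitary Zfp genes. In the knockout they covered 17 (12.1%, 7.72 to 18.6), against 19% of all genes. Such intervals cover counting error only, and treat genes as independent although neighbours share regions. The surroundings of the genes were marked more often. A wild-type region lay within 20 kb of the start of 60 genes (42.9%, 35.0 to 51.1), against 24.4% of all genes and 27.5% of solitary Zfp genes. These were 74 distinct regions near genes of 27 clusters. In the knockout the number was 42 genes (30.0%, 23.0 to 38.0), against 24.3% of all genes. Regions found in wild type alone lay within 20 kb of the start of 46 genes (32.9%, 25.6 to 41.0), against 17.2% of all genes and 19.6% of solitary ones.

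Within the genes the mark lay towards the 3′ end. Of 27 wild-type regions in the 22 spans, 20 had their centre nearer the 3′ end and 7 nearer the start, and the median position was 76.4% of the way from start to end. Positions of centres were not computed for solitary Zfp genes or all genes, so this lean cannot be called particular to the clustered genes. A wild-type region reached within 2 kb of the 3′ end of 15 genes (10.7%, 6.60 to 16.9), against 4.32% of all genes and 9.42% of solitary Zfp genes. Within 2 kb of the start, 1 gene had a region (0.714%), against 3.65% of all genes; it was Zfp768, whose whole span is 2626 bp. In the knockout 7 genes had a region at the 3′ end (5.00%, 2.44 to 9.96), against 5.27% of all genes, and 3 at the start (2.14%), against 4.73%. Regions found in wild type alone reached the 3′ end of 11 genes (7.86%, 4.44 to 13.5), against 1.98% of all genes and 6.52% of solitary ones. Knockout regions showed no such lean, with 9 of 18 centres nearer the 3′ end and 9 nearer the start.

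**Figure D3:**
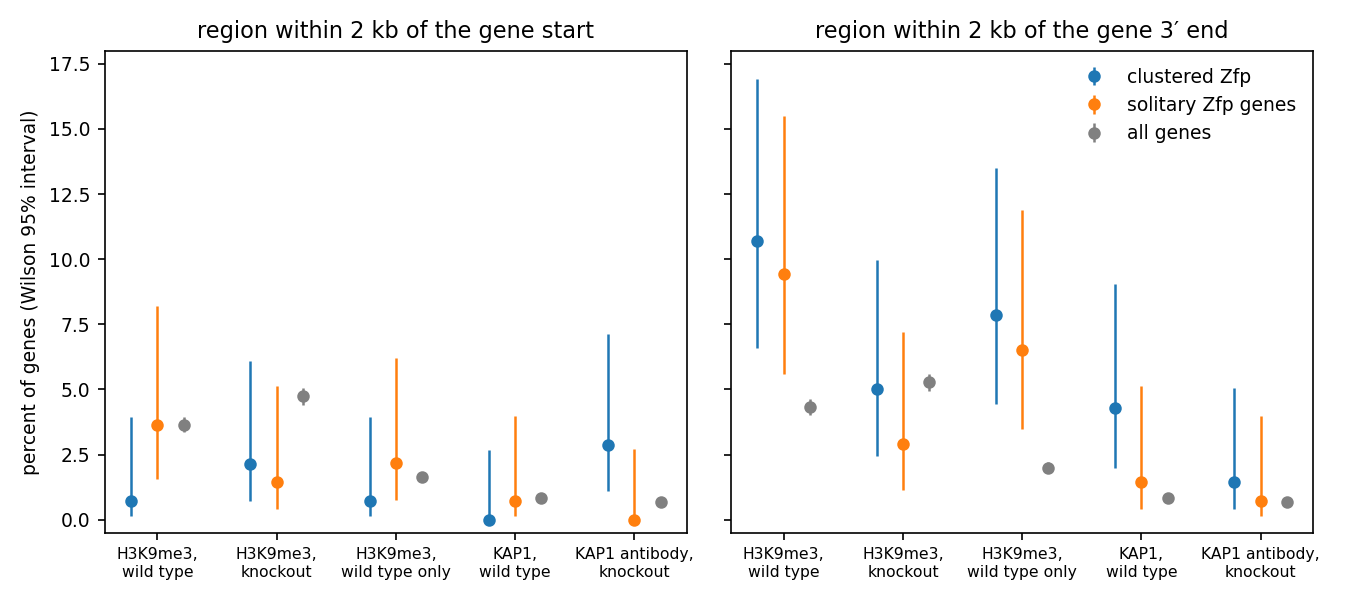
Percent of genes with an H3K9me3 region or a KAP1 peak within 2 kb of the gene start or the 3′ end, for the 140 clustered Zfp genes, the 138 solitary Zfp genes and all 17818 genes, with 95% Wilson intervals. At the 3′ end 10.7% of clustered genes had a wild-type H3K9me3 region against 4.32% of all genes, and at the start 0.714% against 3.65%.

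The covered length was smaller in the knockout across the clusters. Taken from the first to the last gene end, the 41 clusters spanned 4.26 Mb and held 73 wild-type regions of 93.2 kb in all, against 34 knockout regions of 27.3 kb. The knockout length was thus 29.3% of that in wild type, and lay between 24.8% and 31.3% when each cluster was left out in turn. Over the gene spans alone the lengths were 42.6 and 17.1 kb (40.1%). The knockout length was 54.1% of the wild-type length over solitary Zfp spans (45.9 and 84.8 kb), 95.2% over all gene spans and 84.4% over the genome. These shares compare totals, which include regions found in the knockout alone. Of the 73 cluster regions, 56 (76.7%, 65.8 to 84.9) had no overlapping knockout region, against 51.5% of the 37002 wild-type regions of the genome. The covered length was smaller in the knockout in 24 clusters, larger in 5, and 0 in both in 12. The clusters rest on the symbols as deposited. With blank symbols filled from the reference, which raised the genes to 156 and added heavily marked ones on chromosomes 4 and 13, the knockout length was 63.9% of wild type. Each list depends on its own calling threshold, which is not given in the sources used here.

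**Figure D4:**
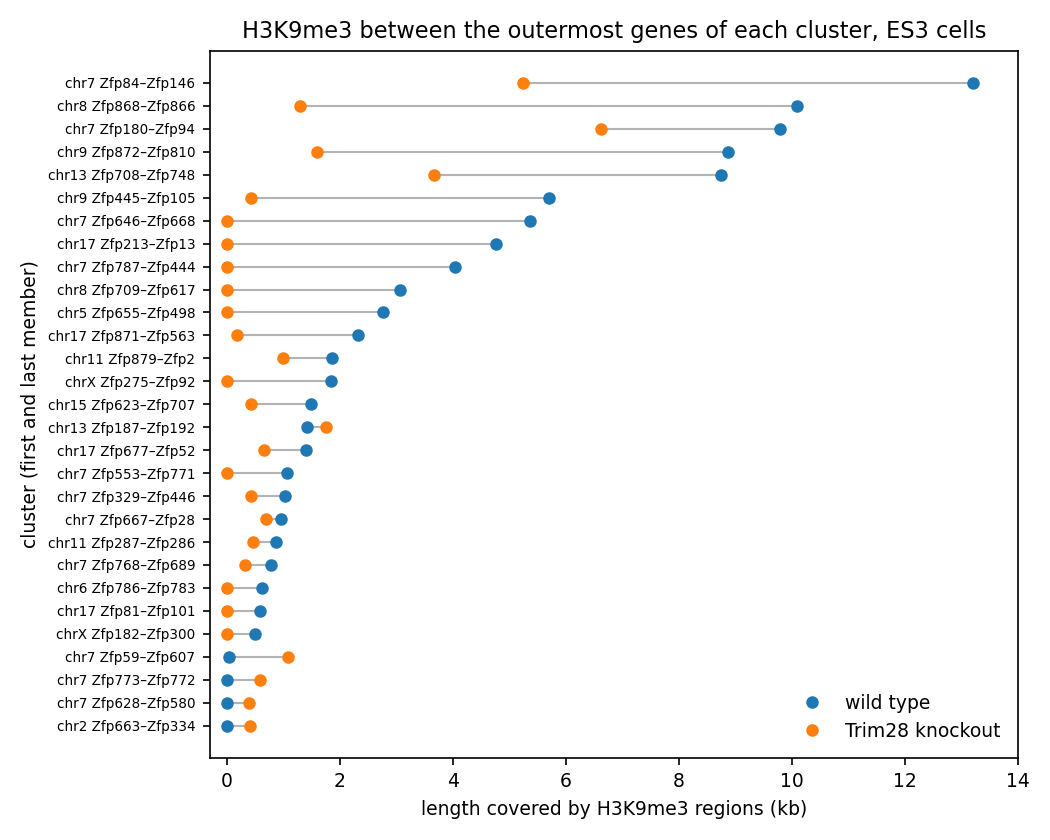
Length covered by H3K9me3 regions in each cluster of numbered Zfp genes with a region in either condition, in kb, in wild-type and knockout ES3 cells, 1 list per condition. The 12 clusters with no region in either list are not drawn. The covered length was smaller in the knockout in 24 of 41 clusters and larger in 5.

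The genes with the largest differences in covered span lay on several chromosomes. Zfp668, at chromosome 7, 135008684 to 135020342 of mm9, had 45.9% of its span covered in wild type, by 1 region of 5357 bp, and none in the knockout. Zfp445 went from 34.6% to 2.87%, as a region of 3613 bp in wild type overlapped one of 428 bp in the knockout and a second of 1552 bp had no counterpart. Zfp768 went from 29.7% to none and Zfp787 from 16.5% to none. Zfp114 went the other way, from none to 21.1%, with 1 knockout region of 1538 bp. Some regions were present in both lists: at Zfp180 the covered share was 21.7% and 13.1%, and at Zfp93 15.6% and 13.5%. At Zfp420 the covered share was 9.36% and 7.03%. These shares include a region of 430 bp found in wild type alone and one of 1088 bp found in the knockout alone. The Zfp420 region present in both lists had 4783 bp in wild type and 2828 bp in the knockout.

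KAP1 peaks within the genes were few. In wild type against input, 10 peaks lay in 8 genes (5.71% of 140, 2.92 to 10.9), against 6.07% of all genes. These genes were Zfp787, Zfp112, Zfp61, Zfp30, Zfp420, Zfp668, Zfp13 and Zfp275. Of the 10 peaks, 7 had their centre nearer the 3′ end than the start, a count not made for solitary Zfp genes or all genes. A peak lay within 2 kb of the 3′ end of 6 genes (4.29%, 1.98 to 9.03), against 0.847% of all genes and 1.45% of solitary Zfp genes. None lay within 2 kb of a start (0 of 140, at most 2.67% by the Wilson interval), against 0.825% of all genes. In the list of wild type against knockout, 11 genes held a peak (7.86%), against 4.74% of all genes, and 8 had one at the 3′ end (5.71%, 2.92 to 10.9), against 0.651%. Zfp180, Zfp568 and Zfp819 held a peak in that list and none in the one against input. Knockout chromatin against input also gave peaks in 9 genes (6.43%), against 4.62% of all genes, although Trim28 transcripts stood at 3.54% of wild type. These lay at the 3′ end of 2 genes (1.43%), against 0.69% of all genes, and at the start of 4 genes (2.86%), against 0.685%. None of the 8 knockout peaks overlapped a wild-type peak or an H3K9me3 region of either condition, as was the case for 83.0% of all 1898 knockout peaks.

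At 5 genes (3.57%, against 2.42% of all genes) a KAP1 peak of wild type against input and an H3K9me3 region found in wild type alone lay in the same span. At 4 of them, Zfp668, Zfp787, Zfp13 and Zfp275, the peak lay in that region. The peak with the highest authors' score among the clustered genes was in Zfp668, at chromosome 7, 135010296 to 135011907 of mm9, with a score of 556.33 on a scale not stated in the sources used here. It lay 79.3% of the way along the gene, inside the H3K9me3 region of 135009180 to 135014536. Zfp787 had a peak at 6083831 to 6084964 on chromosome 7, 94.7% of the way along, with a score of 347.99, inside a region of 4075 bp. The Zfp13 peak, at 23712947 to 23713814 on chromosome 17, stood 97.6% of the way along with a score of 228.96, inside a region of 4770 bp. The Zfp275 peak, at 70598879 to 70599763 on chromosome X, stood at 69.0% with a score of 81.24, inside a region of 1836 bp. In Zfp420 the peak lay in a region that was also found in the knockout, and the region found in wild type alone was another one of 430 bp.

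**Figure D5:**
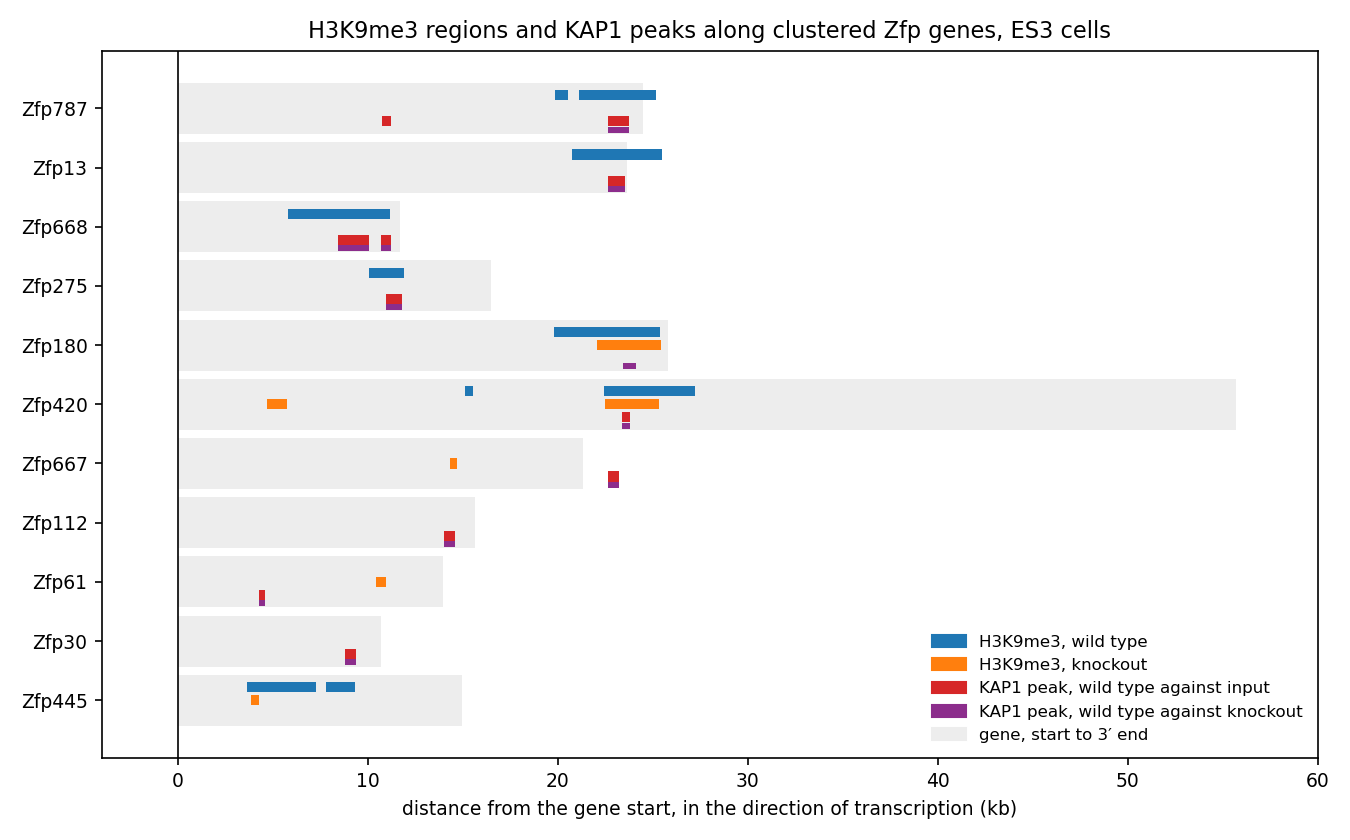
Position of H3K9me3 regions and KAP1 peaks along 11 clustered Zfp genes, 8 of them with a KAP1 peak of wild type against input in the span, as distance from the gene start in kb, with the direction of transcription from left to right. The strong peaks of Zfp787 and Zfp13 lie near the 3′ end, at 94.7% and 97.6% of the gene length.

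For 3 of these genes the 250 bases before the start are shown, since each held an H3K9me3 region and a KAP1 peak inside the gene but neither within 2 kb of the start (from RefSeq on GRCm38.p6, 5′ to 3′ on the gene's strand, CG dinucleotides in capitals). The windows are chr7:6155966-6156215 (minus strand) for Zfp787, chr17:23599488-23599737 (minus strand) for Zfp13 and chrX:73342370-73342619 (plus strand) for Zfp275.
Zfp787: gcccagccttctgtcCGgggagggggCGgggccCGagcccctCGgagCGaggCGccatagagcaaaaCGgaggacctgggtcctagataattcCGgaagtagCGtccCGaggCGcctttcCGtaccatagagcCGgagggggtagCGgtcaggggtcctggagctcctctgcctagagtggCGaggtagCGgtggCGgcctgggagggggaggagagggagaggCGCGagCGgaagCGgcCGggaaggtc
Zfp13: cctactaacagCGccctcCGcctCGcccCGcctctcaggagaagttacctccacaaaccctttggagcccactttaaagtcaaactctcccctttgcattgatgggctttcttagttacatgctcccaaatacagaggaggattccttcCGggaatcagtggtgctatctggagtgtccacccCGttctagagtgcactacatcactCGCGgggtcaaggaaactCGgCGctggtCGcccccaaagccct
Zfp275: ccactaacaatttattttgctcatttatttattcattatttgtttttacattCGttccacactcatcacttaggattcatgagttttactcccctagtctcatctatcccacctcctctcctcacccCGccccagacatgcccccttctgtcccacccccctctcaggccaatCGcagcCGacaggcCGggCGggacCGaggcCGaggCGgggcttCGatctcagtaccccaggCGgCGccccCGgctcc
They held 22, 11 and 13 CG dinucleotides. Promoter windows running from 250 bases before to 50 after the start were found for 117 of the 140 genes, 129 windows in all. Their median was 13 CG dinucleotides and 54.3% GC, against 18 and 59.3% for solitary Zfp genes and 7 and 52.7% for all 32851 windows. The motif TGCCGC, searched on both strands, was in 24 of the 129 windows (18.6%), against 16.4% for solitary Zfp genes and 11.6% of all windows. It occurred 1 time in the printed window of Zfp229. Such a match is a description of letters and not a binding site.

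The RNA values of the genes were then set beside their chromatin. Among the 19 genes (13.6%, against 11.9% of all genes) with an H3K9me3 region of wild type alone in the span, 15 were measured in ES3 cells, none was past 2-fold in either direction, and the median log2 ratio was 0.18 with a range from -0.81 to 0.76. The 96 measured genes without one had a median of 0.15. With such a region within 20 kb of the start, 35 measured genes had a median of 0.19, against 0.12 for the 76 others. The 5 genes with both a KAP1 peak and such a region had a median of -0.38. These were Zfp787 (10.3 to 5.41 RPKM), Zfp420 (2.09 to 1.22), Zfp13 (15.3 to 11.5), Zfp668 (6.47 to 5.73) and Zfp275 (2.10 to 3.80). Zfp275 was thus higher in the knockout and the other 4 were lower, all by less than 2-fold. Ratios below 0 were found in 33.3% of the measured clustered genes and 44.6% of all measured genes. The 5 genes had a median wild-type level of 6.47 RPKM, against 2.58 for the 96 measured genes without such a region. The part of this level in the ratios was not tested.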

How the data were processed

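RNA from pooled duplicate cultures was sequenced, per the labels' protocols, as 1 library per group. The authors deposited RPKM values in 1 table for ES cells (22631 transcript rows) and 1 for MEFs (22630), which were normalized separately; reads per library are unknown. Bowtie and mm9 are named in the submitters' processing notes, with no version. The wild-type and knockout columns of the ES table were read as the ES3 pair, since the labels call the other ES pair wild type and knockdown. The quotient of both columns, deposited as a ratio by the authors, was not used. H3K9me3 regions (no score) and KAP1 peaks with a score of unstated scale were deposited as 1 list per condition, from immunoprecipitations in duplicate or triplicate, per the labels' protocols. The callers are not named in these sources.

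For each symbol the transcript of the highest mean was kept. Ratios were log2((knockout + 1)/(wild type + 1)) for genes reaching 1 RPKM in either library, called at 2-fold. Spans, starts and 3′ ends are the deposited mm9 coordinates, overlap needed 1 bp, and windows were 20 kb and 2 kb. Rows without a usable symbol (820 and 817) took a reference name in the count of all genes and none in the rule for clustered genes. All 140 had their RefSeq transcript in the reference table of GRCm38.p6, used for names and promoters, where 7 have another symbol (Zfp167 is Zkscan7, Zfp191 is Zfp24). No protein table was used, so zinc fingers were not counted. The genes and lists were chosen with earlier results of these data known. Named genes are those past 2-fold, the 5 highest and 5 lowest ratios per comparison, the 5 highest levels per table, genes with a KAP1 peak and a wild-type-only H3K9me3 region, the 5 largest differences in covered span, and the highest gene of each cluster of 5 or more; other genes were named after their values were seen. Scripts (Python 3.11.15, pandas 2.3.3, numpy 2.4.6) were tested on simulated data. Alternatives were other pseudocounts, filters, folds, windows, neighbour distances and symbol rules.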

Additional observations from a re-analysis of the deposited data

How the results depend on the processing

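No paired analysis was possible because each group has 1 library. For the same reason no replicate could be left out. Counts of genes past 2-fold moved with the scale. The same counts over all genes were not computed for other pseudocounts, filters or folds. In ES3 cells the 1 higher gene became 9 with a pseudocount of 0.1 RPKM, 0 with 5 RPKM, 0 with a filter at 5 RPKM, 0 at 3-fold, 3 with neighbours within 200 kb and 3 with blank symbols filled from the reference. The 1 lower gene became 2, 0, 2 (centred on the median), 0 (3-fold) and 2 (centred by span) under pseudocounts of 0.1 and 5 RPKM and those settings. In MEFs the 3 lower genes became 15, 0, 0 at 3-fold and 5 when centred by span. The ES3 median of 0.17 became 0.06 with a pseudocount of 5 RPKM, 0.04 with a filter at 5 RPKM, 0.09 centred on the median and 0.10 over all transcript rows. The MEF median of -0.28 became -0.40 and -0.10 with pseudocounts of 0.1 and 5 RPKM, -0.18 with no filter, -0.07 with a filter at 5 RPKM and -0.40 when centred by span. Zfp229, Zfp459, Zfp260, Zfp445 and Zfp871 came within 2-fold at a pseudocount of 5 RPKM (0.61, -0.77, -0.62, -0.72 and -0.70), and no called gene changed sign. Ratios near 0 did: Zfp771 in ES3 cells (0.03) was -0.05 centred on the median and -0.02 by span, and by span the MEF ratios of Zfp768, Zfp628 and Zfp282 (0.20, 0.14 and -0.15) were -0.23, -0.15 and 0.02. The window at the start was also set at 10 and 50 kb, in place of 20 kb. Genes with a wild-type region were then 20.7% and 70.7%, against 13.5% and 47.3% of all genes. For knockout regions the shares were 18.6% and 54.3%, against 14.1% and 46.6% of all genes. For regions found in wild type alone they were 16.4% and 58.6%, against 8.74% and 36.1% of all genes. Asking for 1 kb of covered span gave 7.86%, 4.29% and 5.71%, against 8.98%, 7.74% and 5.24% of all genes. A 3′ window of 5 kb gave 10.0% in the knockout, against 9.02% of all genes. The knockout share of the covered cluster length was 31.5% with neighbours within 50 kb and 63.9% with blank symbols filled. The 3′ windows of 1 and 5 kb, the rule that a left-out symbol is no neighbour, and the filled symbols were chosen after seeing the data. The cause of these shifts was not tested. Depth limits the low genes: 98 of 140 reached 1 RPKM in ES3 wild type, and the number of reads behind the values is unknown.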

Other observations

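Some zinc finger genes have blank symbols in the deposited tables and so were not reached by the rule. By RefSeq transcript, 22 such rows carry a numbered Zfp symbol in the reference table, and 13 of them would lie within 100 kb of another such gene. The other 9, Zfp992, Zfp991 and Zfp703 among them, would not. Among the 13, Zfp808 and Zfp934 have the same deposited coordinates, as do Zfp966 and Zfp967, so each counts its partner as a neighbour. The 22 rows were picked out after their values were seen. Of these, 20 were measured in ES3 cells, 4 stood higher in knockout cells by 2-fold or more and none was lower by as much, against 12.5% and 3.18% of all measured genes. Zfp992 stood at 2.54 RPKM in wild type and 12.6 in the knockout, a log2 ratio of 1.94. Zfp991 stood at 2.35 and 10.6 RPKM (1.80), Zfp600 at 2.88 and 6.79 (1.01) and Zfp703 at 0.143 and 2.00 (1.39). In MEFs Zfp992 had 1.11 and 0.561 RPKM, and Zfp991 had 1.43 and 0.535.

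The 6 rows on chromosome 4 were all above 0 in ES3 cells, 3 of them by 2-fold or more. H3K9me3 covered between 62.2% and 91.9% of the spans of these 6 genes in wild type and between 58.0% and 91.4% in the knockout. At 9 of the 22 rows wild-type regions covered more than 50% of the span, as they did at 0.803% of all genes. Zfp808 and Zfp934 share their deposited coordinates on chromosome 13, where the covered share was 75.2% in wild type and 35.7% in the knockout. None of the 140 named genes had so much of its span covered: Zfp668 had the largest share, 45.9%.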
